A study of Homo sapiens with 6 samples.

Results

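The 38 genes described here encode the subunits of the human proteasome and the proteins that cap it or help to assemble it. They were chosen by name from the families PSMA, PSMB, PSMC, PSMD and PSME, without use of their measured values, and each matched 1 row of the count table, which held 67026 genes. There were 14 genes of the core particle, 17 of the regulatory particle, 3 chaperones that assemble its base and 4 genes of alternative activators. RNA had been sequenced from subcutaneous tumours that PC-3 cells, an established human prostate cancer line, formed in NSG mice (NOD.Cg-Prkdcscid Il2rgtm1Wjl/SzJ), all male and aged 4 to 5 weeks. These mice lack B, T and natural killer cells. Both groups carried a lentiviral short hairpin RNA and had passed puromycin selection at 2 μg/mL before injection. The control group, shGFP, had a hairpin against green fluorescent protein, and the knockdown group, shVCAN, had one against VCAN, the gene of the matrix proteoglycan versican. Each group had 3 tumours, numbered 1 to 3. Nothing in the labels says how many hairpin sequences or clones were used, whether the tumours came from separate mice, or when they were taken, so p-values measure only the spread between these samples, which may be technical.

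The proteasome degrades proteins tagged with ubiquitin. Its core particle is a barrel of 4 stacked rings, with PSMA subunits in the outer rings and PSMB subunits in the inner rings, and PSMB5, PSMB6 and PSMB7 carry the chymotrypsin-like, caspase-like and trypsin-like proteolytic sites. The regulatory particle binds the end of the barrel, captures tagged proteins, removes the ubiquitin and threads the chain inside with a ring of PSMC ATPases. Transcription of many subunit genes is known to be raised together by the factor NFE2L1 when proteasome activity is low, and PSMB5 is the main target of the drug bortezomib.

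Levels are given as CPM, read counts relative to the size of the library, with sizes adjusted by the trimmed mean of M-values (TMM). A gene is said to rise or fall where the quasi-likelihood test of edgeR gave a Benjamini-Hochberg adjusted p under 0.05 over all 16254 genes tested. VCAN itself stood at 11.1, 9.66 and 11.1 CPM in shGFP tumours 1, 2 and 3 and 5.01, 2.75 and 3.21 CPM in shVCAN tumours 1, 2 and 3, and its groups did not overlap (log2 fold change −1.54, SE 0.207, adjusted p = 4.59e-07). For VCAN alone, the two-sided exact permutation p was 0.1, the smallest value that 3 tumours against 3 allow. Libraries held 11253058 to 13327617 counts. The epithelial genes KRT8, KRT18, KRT19 and EPCAM were present and the prostate genes KLK2 and KLK3 were listed at 0, while TMPRSS2, low in the PC-3 marker list used, stood at 142 to 163 CPM. Mitochondrial messenger RNA took 14.9 ± 1.44% of the counts in shGFP and 6.82 ± 0.702% in shVCAN (SD, n = 3). The summed level of 6 endothelial markers, all of them detected, was 86.9 to 88.6 CPM in shGFP and 48.3 to 52.5 CPM in shVCAN, and 3 of the 4 tested fell. That of 8 fibroblast and pericyte markers, all detected, was 814 to 916 CPM and 383 to 477 CPM, and 4 of the 6 tested fell while 1 rose. Of 7 skeletal muscle markers, with TNNT3 listed at 0, the sum was 190.4 to 338 CPM and 149 to 225 CPM, and 4 of the 5 tested fell. The 9 macrophage markers summed to 3.33 to 5.76 CPM and 1.96 to 2.77 CPM, with CD163, AIF1, C1QA and C1QB listed at 0, and the 5 lymphocyte markers to 0.0929 to 0.416 CPM and 0.438 to 1.16 CPM, with 3 listed at 0. The part of these differences in the results on the proteasome was not tested. Whether mouse reads were removed is not known, so reads of PC-3 cells and of mouse host cells cannot be told apart in these marker sums. Nor can fewer cells of a type and less RNA per cell be told apart in such bulk samples.

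Most proteasome genes were higher in shVCAN. Of the 34 tested, 20 rose, 3 fell and 11 did not pass the test, against 19.2% of all tested genes that rose, 21.1% that fell and 40.3% that did either. Scaled by library size alone, which moved the median of all tested genes from 0.001 to 0.17 on the log2 scale, 25 rose and 1 fell, against 32.2% and 11.6% of all genes. The median log2 fold change of the 34 was 0.24, with a range of −0.62 to 1.01, while the median of all tested genes was 0.001. PSMB5 and PSMA4 had the highest values, and PSMA6, which did not pass the test, the lowest. For 21 of the 34 every shVCAN tumour lay above every shGFP tumour, and for 5 every one lay below, where 23.9% and 24.8% of all tested genes did so. The other 4 genes, PSMB3, PSMC4, PSME1 and PSME2, were listed at 0 in all 6 tumours and were not tested. Together the members took 0.441 to 0.467% of the counts in shGFP and 0.590 to 0.606% in shVCAN.

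**Figure D1:**
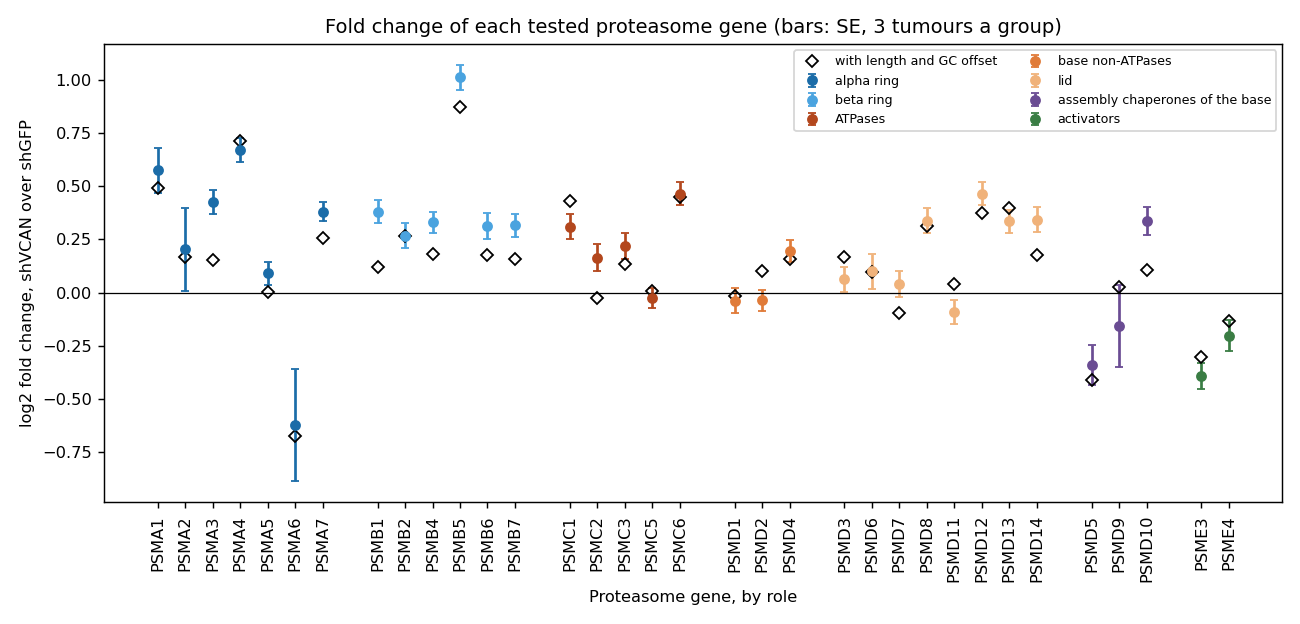
The log2 fold change of shVCAN over shGFP (y axis) for the 34 tested proteasome genes, ordered by role (x axis). Filled points are coloured by role, with bars for the SE (3 tumours a group). Open diamonds give the value with the offset for exonic length and GC content. PSMB5 at 1.01 stands highest, all 6 tested beta ring genes lie above 0, and both tested activators lie below 0.

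Genes of both particles rose, and the median fold change was higher in the core particle, a difference given without a test. Of the 13 tested core genes, 10 rose, 0 fell and 3 did not pass the test, with a median log2 fold change of 0.33, and for 11 of the 13 all shVCAN tumours lay above all shGFP tumours. Of the 16 tested genes of the regulatory particle, 9 rose, 0 fell and 7 did not pass, with a median of 0.18. Of the 5 tested chaperones and activators, 1 rose, 3 fell and 1 did not pass, with a median of −0.20. The difference in median between core and regulatory particle was 0.15, and it was 0.031 in a fit that also adjusted every gene for exonic length and GC content, described further on.

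PSMB5 showed the largest change of any subunit. Its promoter and those of the other genes with the smallest p in their particle, PSMA4 of the core and PSMC6 and PSMD12 of the regulatory particle, are printed to show what lies just before genes that rose. Each is the stretch, of at most 250 bases, before the most upstream RefSeq start (GRCh38.p14), 5′ to 3′ on the gene's strand, without any bases inside the gene's GENCODE 29 bounds. Capitals mark a match, on either strand, to CCAAT (bound by NF-Y), CCGGAAG (bound by ETS factors) or TGACNNNGC (bound by NFE2L1 with a small MAF protein), motifs that were chosen after the values were seen.
PSMB5 promoter, chr14:23035231-23035470, minus strand: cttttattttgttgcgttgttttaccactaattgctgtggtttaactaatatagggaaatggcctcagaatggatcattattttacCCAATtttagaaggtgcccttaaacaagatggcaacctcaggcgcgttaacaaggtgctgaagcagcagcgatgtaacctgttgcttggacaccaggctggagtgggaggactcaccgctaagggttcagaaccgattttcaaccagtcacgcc
PSMA4 promoter, chr15:78540155-78540404, plus strand: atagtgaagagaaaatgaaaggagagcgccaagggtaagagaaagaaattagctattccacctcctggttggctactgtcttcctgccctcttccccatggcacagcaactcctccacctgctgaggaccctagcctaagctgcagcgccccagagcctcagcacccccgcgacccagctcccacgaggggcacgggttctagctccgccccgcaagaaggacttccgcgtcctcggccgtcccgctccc
PSMC6 promoter, chr14:52706950-52707171, plus strand: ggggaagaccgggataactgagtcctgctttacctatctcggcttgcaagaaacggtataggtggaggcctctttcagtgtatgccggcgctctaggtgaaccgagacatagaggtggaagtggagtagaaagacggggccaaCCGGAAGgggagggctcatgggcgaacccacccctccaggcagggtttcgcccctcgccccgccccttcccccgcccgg
PSMD12 promoter, chr17:67366628-67366827, minus strand: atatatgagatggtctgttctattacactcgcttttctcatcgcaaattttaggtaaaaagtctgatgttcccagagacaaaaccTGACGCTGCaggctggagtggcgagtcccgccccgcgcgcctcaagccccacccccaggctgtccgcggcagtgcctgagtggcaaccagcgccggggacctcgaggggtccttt
The PSMB5 window held 1 CCAAT, 160 to 164 bases before the start. In PSMC6 there was 1 ETS match at 101 to 107 bases, and in PSMD12 1 match to the NFE2L1 motif at 157 to 165 bases. The PSMA4 window held none of the letters searched. No matches overlapped in these windows.

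The motifs were counted in the 250 bases before the start of the 33 members with a promoter sequence, which leaves out PSMA7, PSMB1, PSMB6, PSMB7 and PSMD4. The NFE2L1 motif was in 8 of the 33 (24.2%), against 11.1% of all 27303 promoters and 12.3% of the promoters of tested genes. Of its 8 carriers, 1 rose (PSMD12), 2 fell (PSMD5 and PSME4), 2 did not pass the test and 3 were not tested. CCAAT was in 15 of the 33 (45.5%), against 33.0% of all promoters and 34.6% of those of tested genes. Of these 15, 7 rose, 1 fell, 6 did not pass and 1 was not tested. The ETS motif was in 8 (24.2%), against 8.78% and 14.7%, and these were 0 of 10 core genes and 6 of 16 regulatory genes. Of the 8 with the ETS motif, 5 rose, 1 fell and 2 did not pass. Among all 33, 15 rose, 3 fell, 11 did not pass and 4 were not tested. These are descriptions of letters in a window, and nothing here measured binding.

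The alpha ring forms the gate and outer wall of the core particle. Of its 7 genes, 4 rose (PSMA1, PSMA3, PSMA4 and PSMA7) and 3 did not pass, with a median log2 fold change of 0.38. PSMA4 (ENSG00000041357.16, chr15:78540405-78552419, plus strand in GRCh38) was measured at 145, 133 and 140.4 CPM in shGFP tumours 1, 2 and 3 and 215, 231 and 221 CPM in shVCAN tumours 1, 2 and 3. The groups were far apart, with every shVCAN tumour at least 215 CPM and no shGFP tumour over 145 CPM. The mean went from 139.6 ± 6.04 to 222 ± 7.82 CPM (SD, n = 3), 1.59-fold (log2 fold change 0.67, SE 0.0551, adjusted p = 2.97e-11). PSMA7 (ENSG00000101182.15, chr20:62136735-62143440, minus strand), the most abundant subunit transcript per length, had 487, 508 and 474 CPM in the shGFP tumours and 642, 641 and 630.4 CPM in the shVCAN tumours. These groups did not overlap either, and the shVCAN tumours were close together (log2 fold change 0.38, SE 0.0446, adjusted p = 3.76e-08).

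PSMA3 (ENSG00000100567.13, chr14:58244831-58272012, plus strand) read 165, 172 and 164 CPM in shGFP and 239, 217 and 218 CPM in shVCAN. All 3 shVCAN tumours were higher, with tumour 1 highest (log2 fold change 0.43, SE 0.0548, adjusted p = 2.22e-07). PSMA1 rose from a lower level (log2 fold change 0.57, SE 0.107, adjusted p = 6e-05). PSMA5 (0.091, adjusted p = 0.199) and PSMA2 (0.20, adjusted p = 0.437) did not pass the test. PSMA6 had 3.50, 4.83 and 4.02 CPM in shGFP and 2.61, 2.96 and 2.41 CPM in shVCAN, and although the groups did not overlap it did not pass either (log2 fold change −0.62, SE 0.264, adjusted p = 0.0602).

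PSMA1, PSMA2 and PSMA6 were counted at levels far below the other alpha ring genes, and more than 50% of the exonic bases of their principal transcripts are shared with other annotated genes on the same strand: 53.2% in PSMA1, 52.5% in PSMA2 and 81.0% in PSMA6. How reads in shared exons were counted is unknown, and its part in these low levels was not tested. PSMA6P1, a pseudogene of PSMA6, was counted at 1.8 to 4.4 CPM in these tumours, so reads of the pair may be split between them. The values of these 3 genes are uncertain for that reason.

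All 6 tested genes of the beta ring rose, with a median of 0.32. PSMB5 (ENSG00000100804.19, chr14:23016543-23035230, minus strand), the chymotrypsin-like subunit, stood at 133, 127 and 113 CPM in shGFP tumours 1, 2 and 3 and 253, 249 and 251 CPM in shVCAN tumours 1, 2 and 3. The groups lay far apart, and the shVCAN tumours varied less among themselves than the shGFP tumours. The mean doubled, from 124 ± 10.5 to 251 ± 2.22 CPM (SD, n = 3), 2.02-fold (log2 fold change 1.01, SE 0.0583, adjusted p = 1.01e-14). Over every alternative run its log2 fold change stayed between 0.87 and 1.18.

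The other catalytic subunits changed less. PSMB6 (ENSG00000142507.10, chr17:4796144-4798503, plus strand), the caspase-like subunit, had 124, 141 and 119.6 CPM in shGFP and 160.2, 155 and 163 CPM in shVCAN (log2 fold change 0.32, SE 0.0612, adjusted p = 0.000108). PSMB7 (ENSG00000136930.13, chr9:124353466-124415444, minus strand), the trypsin-like subunit, had 178, 166 and 163 CPM in shGFP and 222, 207 and 203 CPM in shVCAN (log2 fold change 0.32, SE 0.0555, adjusted p = 2.97e-05). For both, all shVCAN tumours lay above all shGFP tumours. The ratio of PSMB5 counts to PSMB6 counts, which no scaling of libraries can alter, was 1.07, 0.900 and 0.944 in shGFP tumours 1, 2 and 3 and 1.58, 1.61 and 1.54 in shVCAN tumours 1, 2 and 3. Against PSMB7 the PSMB5 ratio went from 0.734 ± 0.0375 to 1.19 ± 0.0494 (SD, n = 3), again with no overlap. The ratio of PSMB6 to PSMB7 was 0.759 ± 0.0785 in shGFP and 0.758 ± 0.0433 in shVCAN, and its groups overlapped.

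Among the beta subunits without a catalytic site, PSMB1 (ENSG00000008018.9, chr6:170535117-170553341, minus strand) had 138, 136 and 135 CPM in shGFP and 176, 176 and 180.4 CPM in shVCAN. The groups were well apart (log2 fold change 0.38, SE 0.0541, adjusted p = 1.21e-06). PSMB4 (ENSG00000159377.11, chr1:151399534-151401944, plus strand) went from 268, 279 and 278 CPM in shGFP to 343, 333 and 362 CPM in shVCAN, also without overlap (log2 fold change 0.33, SE 0.0492, adjusted p = 2.43e-06). PSMB2 rose as well (log2 fold change 0.27, SE 0.0575, adjusted p = 0.000359). PSMB3 was listed at 0. Variants replace the catalytic subunits in the immunoproteasome of immune and interferon-treated cells. Of these, PSMB8 and PSMB9 were listed at 0 in every tumour, and no statement about their expression is drawn from that. PSMB10, at 1.2 to 3.1 CPM, did not pass the test (log2 fold change −0.73, SE 0.347, adjusted p = 0.0928).

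**Figure D2:**
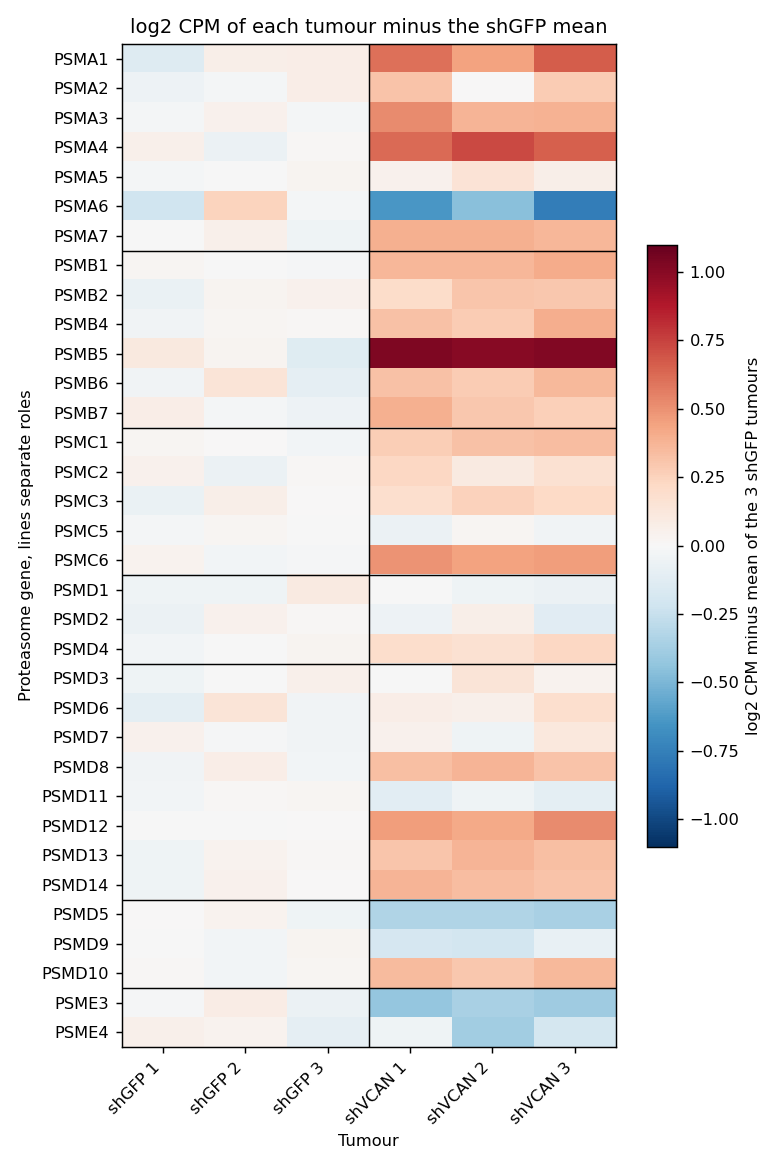
The log2 CPM of each tested proteasome gene (rows, with lines between roles) in each of the 6 tumours (columns), minus the mean of the 3 shGFP tumours, as a colour scale in log2 units. The row of PSMB5 is the strongest in all 3 shVCAN tumours, and PSMA6, PSME3 and PSMD5 are among the rows below the shGFP mean in all 3.

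The base of the regulatory particle holds a ring of 6 ATPases that unfold the substrate. Of the 5 tested, 4 rose, with a median of 0.22. PSMC6 (ENSG00000100519.12, chr14:52707172-52728587, plus strand) stood at 144, 137 and 139 CPM in shGFP tumours 1, 2 and 3 and 197, 191 and 192 CPM in shVCAN tumours 1, 2 and 3. Every shVCAN tumour lay well above every shGFP tumour. The mean went from 140.1 ± 3.73 to 193 ± 3.50 CPM (SD, n = 3), 1.38-fold (log2 fold change 0.46, SE 0.0540, adjusted p = 3.3e-08). PSMC1 (ENSG00000100764.14, chr14:90256495-90275429, plus strand) had 102, 101 and 98.5 CPM in shGFP and 121, 126 and 128 CPM in shVCAN (log2 fold change 0.31, SE 0.0591, adjusted p = 8.66e-05). Its groups did not overlap, but 75.8% of its exonic bases lie opposite NRDE2 on the other strand, itself at 11.2 to 15.4 CPM, and whether reads were counted by strand is unknown.

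PSMC3 (ENSG00000165916.8, chr11:47418769-47426473, minus strand) read 92.8, 102 and 97.7 CPM in shGFP and 111, 116 and 113 CPM in shVCAN, with no overlap and a small change (log2 fold change 0.22, SE 0.0613, adjusted p = 0.00449). PSMC2 passed the test narrowly (log2 fold change 0.16, SE 0.0644, adjusted p = 0.0417). It no longer passed without shGFP tumour 2 (adjusted p = 0.127), shGFP tumour 3 (0.0734), shVCAN tumour 1 (0.184) or shVCAN tumour 3 (0.0908). PSMC5, the most abundant ATPase transcript per length, had a log2 fold change of −0.026 and did not pass (adjusted p = 0.705). Of the exonic bases of its principal transcript, 27.2% lie opposite FTSJ3, itself at 125 to 139 CPM, so its level and change are uncertain if strands were not told apart. PSMC4 was listed at 0.

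The non-ATPase subunits of the base hold the scaffolds PSMD1 and PSMD2 and the ubiquitin receptor PSMD4. Only PSMD4 of these 3 rose. PSMD4 (ENSG00000159352.16, chr1:151254703-151267479, plus strand) had 160.2, 164 and 168 CPM in shGFP and 187, 184 and 191 CPM in shVCAN, so that its groups lay close to each other without overlap (log2 fold change 0.20, SE 0.0531, adjusted p = 0.00369). The scaffolds did not pass the test, with log2 fold changes of −0.039 for PSMD1 (adjusted p = 0.638) and −0.036 for PSMD2 (adjusted p = 0.598), although PSMD2, at 475 to 540.2 CPM, was among the most deeply counted members.

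The lid covers the base and holds PSMD14, the metalloprotease that cuts ubiquitin from the substrate. Of 8 tested lid genes 4 rose, with a median of 0.22. PSMD12 (ENSG00000197170.10, chr17:67337916-67366627, minus strand) stood at 144.6, 144.6 and 145.4 CPM in shGFP tumours 1, 2 and 3 and 199, 193 and 208 CPM in shVCAN tumours 1, 2 and 3. The 3 shGFP tumours were nearly equal, and all shVCAN tumours were higher. The mean went from 145 ± 0.484 to 199.8 ± 7.27 CPM (SD, n = 3), 1.38-fold (log2 fold change 0.46, SE 0.0540, adjusted p = 3.29e-08). PSMD13 (ENSG00000185627.18, chr11:236546-252984, plus strand) had 126, 134 and 132 CPM in shGFP and 161, 169 and 165 CPM in shVCAN (log2 fold change 0.33, SE 0.0558, adjusted p = 1.38e-05). PSMD14 (ENSG00000115233.12, chr2:161308038-161411717, plus strand) had 113, 121 and 117 CPM in shGFP and 152, 148 and 145 CPM in shVCAN (log2 fold change 0.34, SE 0.0573, adjusted p = 1.41e-05). Neither gene's groups overlapped.

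PSMD8 rose by a like amount (log2 fold change 0.34, SE 0.0580, adjusted p = 2.07e-05). The lid genes PSMD3, PSMD6, PSMD7 and PSMD11 did not pass the test, with log2 fold changes from −0.091 in PSMD11 to 0.10 in PSMD6 and adjusted p from 0.199 to 0.628. In PSMD7, 50.4% of the exonic bases of the principal transcript lie opposite another gene, itself at 11.4 to 13.4 CPM. The smallest lid subunit, SEM1, was not among the members and stood on the list of associated proteins, where it rose (log2 fold change 0.51, SE 0.0548, adjusted p = 6.64e-09). With the offset for principal transcript length, SEM1 no longer passed (log2 fold change 0.028, adjusted p = 0.707).

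The chaperones of the base, which help to build the ATPase ring and then leave, did not move together. PSMD10, also known as gankyrin (ENSG00000101843.19, chrX:108084207-108091618, minus strand), had 71.4, 69.2 and 71.7 CPM in shGFP and 90.0, 87.1 and 90.9 CPM in shVCAN, all higher in shVCAN (log2 fold change 0.34, SE 0.0644, adjusted p = 9.3e-05). PSMD5 (ENSG00000095261.14, chr9:120815496-120842984, minus strand) had 31.9, 32.8 and 30.9 CPM in shGFP and 25.3, 25.3 and 24.9 CPM in shVCAN, all lower in shVCAN (log2 fold change −0.34, SE 0.0952, adjusted p = 0.00471). Scaled by library size alone, PSMD5 no longer passed (adjusted p = 0.152). PSMD9, at 5.5 to 6.5 CPM, did not pass (adjusted p = 0.552), and 43.8% of the exonic bases of its principal transcript are shared with another gene.

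The activators bind the core particle in place of the regulatory particle, and both tested ones fell with TMM scaling, PSME4 by a call that many alternatives ended. PSME3 (ENSG00000131467.11, chr17:42824385-42843758, plus strand), which encodes the nuclear activator PA28 gamma, stood at 127, 135 and 122 CPM in shGFP tumours 1, 2 and 3 and 95.5, 100.1 and 97.3 CPM in shVCAN tumours 1, 2 and 3. All shGFP tumours lay above all shVCAN tumours. The mean went from 128 ± 6.38 to 97.7 ± 2.32 CPM (SD, n = 3, log2 fold change −0.39, SE 0.0605, adjusted p = 4.59e-06). PSME4 (ENSG00000068878.15, chr2:53864067-53970840, minus strand), the activator PA200, had 111, 109.5 and 99.6 CPM in shGFP and 103, 81.9 and 93.3 CPM in shVCAN. Its groups overlapped, since shVCAN tumour 1 lay above shGFP tumour 3, and its call was the weakest of the 3 that fell (log2 fold change −0.20, SE 0.0716, adjusted p = 0.0239). Without shGFP tumour 1 its adjusted p was 0.124, without shGFP tumour 2 it was 0.106, and without shVCAN tumour 2 it was 0.143. Scaled by library size alone its log2 fold change was −0.036 (adjusted p = 0.73), and with upper quartile factors its adjusted p was 0.0693.

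PSME1 and PSME2, the subunits of the interferon-inducible activator PA28, were listed at 0, as were PSMB3 and PSMC4. PSMB3 and PSMC4 encode subunits that every proteasome needs, so a value of 0 says only how these genes are listed. Each of the 4 lay in a run of neighbouring protein-coding genes listed at 0 in all tumours. The run around PSME1 and PSME2 held 36 genes (chr14:24052000-24379604), among them RNF31, IRF9, NEDD8 and TINF2. That of PSMB3 held 4 genes (chr17:38752736-38841455), with PIP4K2B and CWC25, and that of PSMC4 also held 4 (chr19:39971005-40090938). The cause was not tested, and no statement about the expression of these 4 subunits can be drawn from the table.

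The 2 particles were also summed in each tumour. The core particle, over its 13 counted genes, came to 1943, 1982 and 1911 CPM in shGFP tumours 1, 2 and 3 and to 2602, 2579 and 2593 CPM in shVCAN tumours 1, 2 and 3. The regulatory particle, over 16 counted genes, came to 2464, 2548 and 2530.1 CPM in shGFP and to 2751, 2816 and 2751 CPM in shVCAN. Both sums were higher in every shVCAN tumour, and the gap was wider for the core. The ratio of core to regulatory counts, independent of how libraries are scaled, was 0.789, 0.778 and 0.756 in shGFP and 0.946, 0.916 and 0.942 in shVCAN, with means of 0.774 ± 0.0170 and 0.935 ± 0.0164 (SD, n = 3). As a mean of log2 CPM, in which each gene weighs the same, the core minus the regulatory particle was −0.67 ± 0.020 in shGFP and −0.51 ± 0.020 in shVCAN. These are given as values, without a test, since the members of a particle are not replicates.

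**Figure D3:**
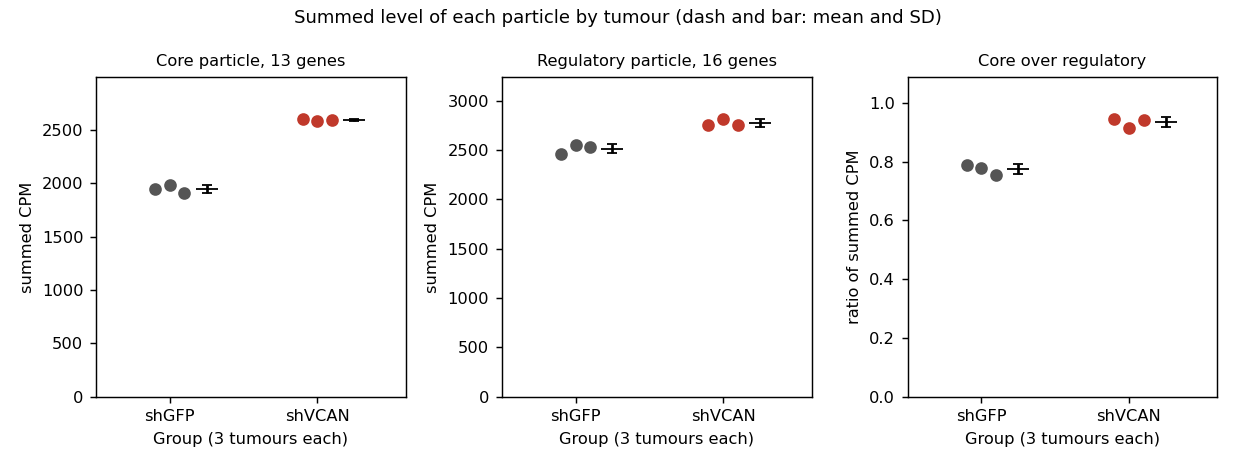
Summed CPM of the core particle and of the regulatory particle and their ratio (y axes, from 0) in each of the 3 shGFP and 3 shVCAN tumours, as points, with the mean as a dash and the SD as a bar. The core sum moves from 1946 ± 35.6 to 2591 ± 11.6 CPM, and no shVCAN tumour overlaps the shGFP tumours in any panel.

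The particles differed in transcript length, and in these libraries fold change ran with length over all genes. The median principal transcript, taken from GENCODE 29, was 1029 nucleotides in the tested core genes and 1972.5 nucleotides in the tested regulatory genes. Of all tested genes with a principal transcript under 1000 nucleotides (671 genes), 52.2% rose, with a median log2 fold change of 0.32, while of those of 4000 nucleotides or more (4582 genes) 12.6% rose, with a median of −0.13. All 6 core genes under 1000 nucleotides rose, with a median of 0.36 beside the 0.32 of all genes of that length, and no regulatory gene was that short. Between 1000 and 2000 nucleotides, the median of 2631 genes was 0.14 and 33.0% rose. There, 2 of 4 core genes rose with a median of 0.39, and 6 of 9 regulatory genes rose with a median of 0.22. These core genes were PSMB5 and the genes named above as uncertain for their shared exons, PSMA1, PSMA2 and PSMA6. Between 2000 and 4000 nucleotides, where the median of 5254 genes was −0.021 and 18.2% rose, it was 2 of 3 core genes and 1 of 5 regulatory genes. At 4000 nucleotides or more there was no core gene, and both regulatory genes, PSMC1 and PSMD12, rose, with a median of 0.39 beside the −0.13 of all genes of that length. The value of PSMC1 is uncertain, since 82.15% of the exonic bases of its principal transcript lie opposite NRDE2.

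**Figure D4:**
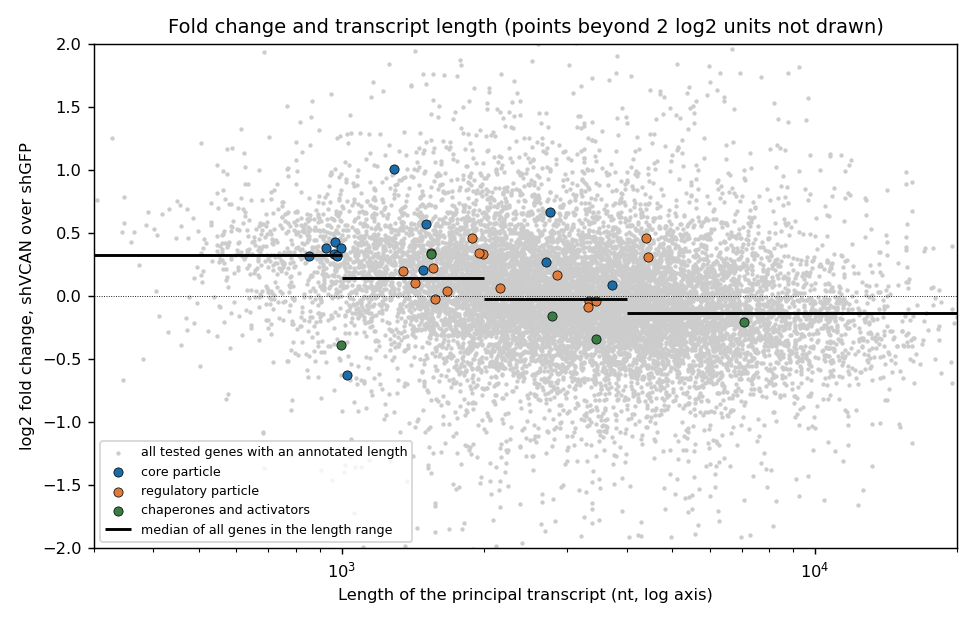
The log2 fold change of shVCAN over shGFP (y axis) against the length of the principal transcript in nucleotides (x axis, log scale), with all tested genes in grey and the core, regulatory and other proteasome genes in colour. Core genes lie mostly to the left, where the median of all genes under 1000 nucleotides is 0.32, and PSMB5 and PSMA4 lie above the other members of their length.

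With an offset fitted on all genes for GC content and exonic length, 17 of the 34 rose and 3 fell, where 19.6% of all genes rose and 19.4% fell. The median was 0.18 in the core (9 rose, 1 fell) and 0.15 in the regulatory particle (8 rose, 0 fell), so the difference between them was 0.031. Using the length of the principal transcript in its place, an alternative added after the values were seen, 15 rose and 5 fell against 21.6% and 21.2% of all genes, with medians of 0.12 in the core (8 rose, 1 fell) and 0.087 in the regulatory particle (7 rose, 2 fell). PSMB5 kept log2 fold changes of 0.87 and 0.89 under these fits and PSMA4 0.71 and 0.62. PSMC6 (0.45 and 0.23), PSMD12 (0.37 and 0.43) and PSMD13 (0.40 and 0.29) stayed higher and PSME3 (−0.30 and −0.59) lower.

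Other calls rested on the fit without an offset. PSMB1 had adjusted p = 0.0585 and 0.728 with the offsets for exonic and principal length, and PSMD10 0.169 and 0.17. PSMC2 had 0.762 and 0.44. PSME4 passed with neither (adjusted p = 0.0791 and 0.167). PSMC3 no longer passed with the first (adjusted p = 0.0501) and PSMD4 with the second (adjusted p = 0.126). PSMA3 and PSMD14 kept their call with the first offset and changed sign with the second, to −0.0076 and −0.035, where neither passed. Other genes passed with an offset and not without one. PSMA6 became lower with both (adjusted p = 0.0444 and 0.00201), and PSMD3 became higher with the first (adjusted p = 0.00877). With the second, PSMC5 (−0.15, adjusted p = 0.00551) and PSMD6 (−0.21, adjusted p = 0.0257) became lower and PSMD2 (0.13, adjusted p = 0.0109) higher. An offset removes any change that runs with length, whatever its source, and technical and biological sources of that change cannot be told apart here.

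Subunits that stand in equal number in the barrel were not counted at equal levels per transcript length. In shGFP, PSMA7 had the highest level, 492 CPM per kb, followed by PSMB4 at 285 CPM per kb. PSMB7 was at 173 CPM per kb and PSMB6 at 150.5 CPM per kb. PSMB5, the lowest of the 3 catalytic subunits in shGFP at 96.1 CPM per kb, reached 194 CPM per kb in shVCAN, between PSMB6 at 187 and PSMB7 at 215 CPM per kb. The lowest levels were those of PSMD9, PSMA2 and PSMA6, at 2.28, 3.73 and 4.00 CPM per kb in shGFP, all 3 of them genes with shared exons.

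**Figure D5:**
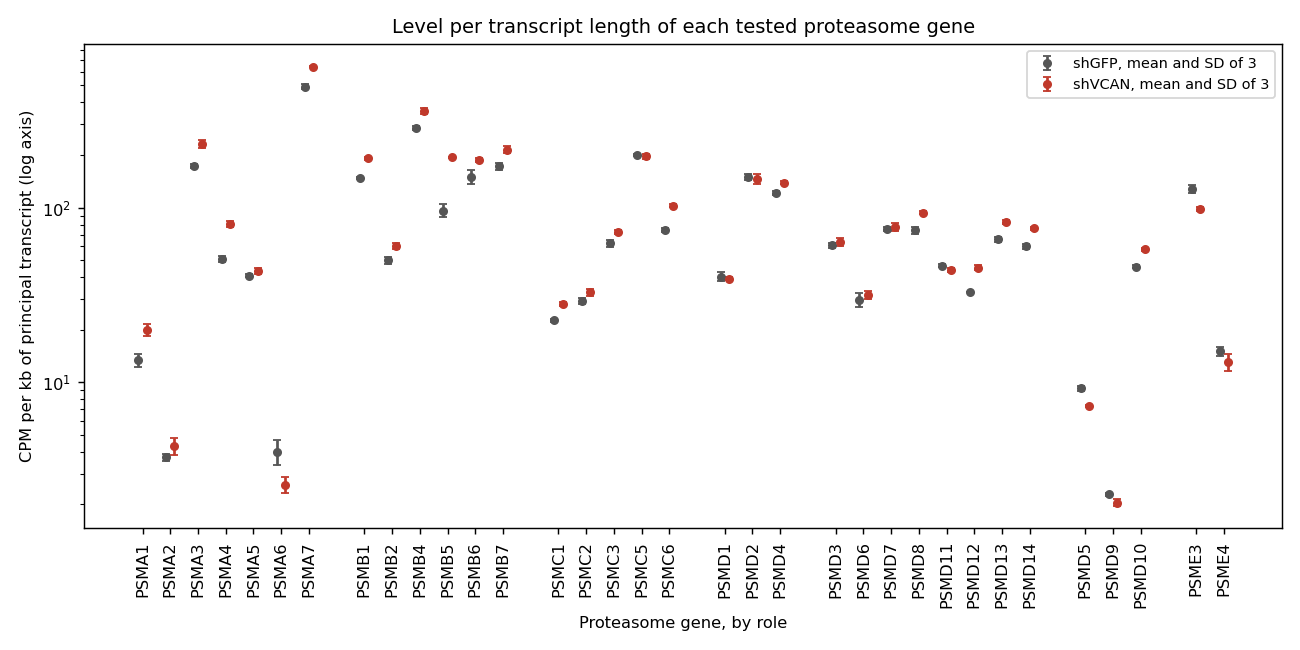
Level per kb of principal transcript (y axis, CPM per kb, log scale) of each tested proteasome gene (x axis, by role), with separate points for the shGFP and shVCAN means of 3 tumours each. PSMA7 stands highest in both groups, and PSMB5 moves from 96.1 to 194 CPM per kb.

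Most assembly factors outside the PSMD family also rose. Of 7 assembly factors, all tested, 6 rose and 0 fell, with a median log2 fold change of 0.37, where 19.2% of all genes rose and 21.1% fell. With the exonic offset 6 rose and 1 fell, with a median of 0.35, where 19.6% and 19.4% of all genes did. POMP, which guides the closing of the barrel, stood at 63.2, 64.7 and 60.1 CPM in shGFP tumours 1, 2 and 3 and 98.0, 104 and 99.8 CPM in shVCAN tumours 1, 2 and 3. Its groups did not overlap, and its log2 fold change was close to that of PSMA4 (log2 fold change 0.68, SE 0.0654, adjusted p = 7.9e-10). PSMG1, a chaperone of the alpha ring, went from 25.9 ± 3.05 to 37.1 ± 1.43 CPM (SD, n = 3, log2 fold change 0.52, SE 0.0978, adjusted p = 7.94e-05). PAAF1, which binds the ATPases, went from 22.8 ± 2.66 to 32.0 ± 1.78 CPM (SD, n = 3, log2 fold change 0.49, SE 0.104, adjusted p = 0.000305).

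More of the listed regulators of proteasome gene transcription fell than rose, except when libraries were scaled by size alone. Of 11, 2 rose and 6 fell, with a median of −0.21, where 19.2% of all genes rose and 21.1% fell. By library size alone 4 rose and 4 fell, with a median of −0.039, where 32.2% of all genes rose and 11.6% fell. DDI2, the protease that cuts NFE2L1 into its active form, went from 39.6 ± 3.12 to 24.4 ± 1.61 CPM (SD, n = 3, log2 fold change −0.70, SE 0.0957, adjusted p = 5.5e-07). MAFK and MAFG, small MAF partners of NFE2L1 on DNA, went from 137 ± 4.39 to 83.0 ± 10.9 CPM (SD, n = 3, log2 fold change −0.72, SE 0.0713, adjusted p = 1.58e-09) and from 89.4 ± 3.68 to 64.5 ± 2.61 CPM (SD, n = 3, log2 fold change −0.47, SE 0.0669, adjusted p = 1.16e-06). NFE2L1 itself, named here after its values were seen, had 455, 474 and 475 CPM in shGFP and 378, 395 and 364 CPM in shVCAN, all lower in shVCAN (log2 fold change −0.31, SE 0.0471, adjusted p = 4.24e-06). With the exonic offset its log2 fold change was −0.15 (adjusted p = 0.00346) and with the principal offset −0.085 (adjusted p = 0.0966), and by library size alone −0.14 (adjusted p = 0.0308). The 3 subunits of NF-Y, also named after their values were seen, did not move together: NFYB rose (log2 fold change 0.65, SE 0.0979, adjusted p = 3.22e-06), while NFYA fell by 0.21 on the log2 scale (adjusted p = 0.0237), as did NFYC (adjusted p = 0.0431). By library size alone neither fall passed (adjusted p = 0.709 and 0.702), NFYC did not pass with the exonic offset (adjusted p = 0.502) and NFYA did not with the principal offset (adjusted p = 0.142). These are transcript levels, and the activity of these factors was not measured.

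Of 11 proteins that associate with the assembled proteasome, 2 rose and 2 fell, with a median of 0.041, near the shares of all genes (19.2% and 21.1%). By library size alone 6 rose and 1 fell, with a median of 0.21, against 32.2% and 11.6% of all genes. TXNL1, a thioredoxin-like protein bound to the regulatory particle, rose (log2 fold change 0.44, SE 0.0681, adjusted p = 4.85e-06), and UBE3C, a ubiquitin ligase at the proteasome, fell (log2 fold change −0.36, SE 0.0627, adjusted p = 2.76e-05). Of 6 genes of ubiquitin and its activating enzymes, 3 rose and 1 fell, with a median of 0.12, where 19.2% of all genes rose and 21.1% fell. With the exonic offset 1 rose, near the 19.6% of all genes, and 0 fell, and by library size alone 5 rose and 0 fell, with a median of 0.28, where 32.2% and 11.6% of all genes did. RPS27A, which encodes a ubiquitin fused to a ribosomal protein, went from 740.0 ± 10.4 to 873 ± 18.3 CPM (SD, n = 3, log2 fold change 0.24, SE 0.0423, adjusted p = 3.14e-05), and UBB from 791 ± 8.42 to 927 ± 34.1 CPM (SD, n = 3, log2 fold change 0.23, SE 0.0430, adjusted p = 7.64e-05). With the principal offset the RPS27A value was −0.086 (adjusted p = 0.0847), and with the exonic offset UBB no longer passed (adjusted p = 0.142).

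The shuttles that carry tagged proteins to the proteasome, with the VCP segregase and its partners, had no gene that rose with TMM scaling. Of 10 tested, 0 rose and 4 fell, with a median of −0.072, where 19.2% of all genes rose and 21.1% fell. With the exonic offset 2 rose and 3 fell, near the 19.6% and 19.4% of all genes, and by library size alone 5 rose and 2 fell, with a median of 0.095, where 32.2% and 11.6% of all genes did. FAF1, a VCP cofactor, went from 8.91 ± 1.87 to 5.28 ± 1.25 CPM (SD, n = 3, log2 fold change −0.75, SE 0.203, adjusted p = 0.00355). NPLOC4, another, fell (log2 fold change −0.28, SE 0.0624, adjusted p = 0.000575), but not with the exonic offset (adjusted p = 0.213) or scaled by library size alone (adjusted p = 0.174).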

How the data were processed

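Whole-number read counts per gene were deposited by the authors for 6 PC-3 xenograft tumours, without normalisation. Per the submitters' processing notes, the build was hg38 and the tools included Trim Galore, STAR and DESeq2. Which program counted reads, whether by strand, and whether mouse reads were removed is not given in the sources used. Any mouse reads left could add to the counts of human genes. Of 67071 rows, 45 second copies of pseudoautosomal genes, with 0 counts, were left out. Symbols came from a table of gene names and, for 289 genes, from GENCODE 29, which also gave coordinates (GRCh38, the assembly of hg38), lengths and GC content. Rows without a symbol (6367) held at most 0.166% of a library.

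Counts were tested with edgeR 4.0.16 in R 4.3.3 (TMM, filterByExpr, group as the only term, Benjamini-Hochberg over 16254 genes). The SE is the log2 fold change over the square root of F. Offsets for length and GC content were natural splines fitted on genes with a mean log2 CPM of at least 2. CPM per kb divides by the principal transcript's length. Libraries of 11253058 to 13327617 counts gave a common biological coefficient of variation of 6.63%. Libraries of a group differed by more than counting error, with a chi-square per gene of 3.45 to 6.61, and none was merged. The test was checked on simulated counts. Alternatives were DESeq2 1.42.0, limma 3.58.1, other scalings and filters, the offsets, a replicate block and leaving out each tumour. The growth protocol names 3 experimental groups, and the third was not analysed here.

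The members were chosen by name and not by their measured values, but they and the gene lists were chosen with earlier results of these data known. Values in every tumour are given, in each role, for up to 3 called members with the smallest p, for the catalytic subunits, PSMD4 and PSMD14, and of each other list up to 3 called genes are named. A further few are named where a count or a role calls for it. 1 gene that this rule names is not reported here.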

Additional observations from a re-analysis of the deposited data

How the results depend on the processing

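With upper quartile factors, the median log2 fold change was 0.28 over all members, 0.37 in the core and 0.22 in the regulatory particle. Scaled by library size alone, where the median of all tested genes moved to 0.17, these were 0.41, 0.50 and 0.35, and 1 member fell. Without a filter the median over all members was 0.26. With the offset for GC content and exonic length the medians were 0.15, 0.18 and 0.15, 1 core member fell, and the core minus the regulatory particle was 0.031. With the offset for principal length, chosen after seeing the data, they were 0.087, 0.12 and 0.087, 5 members fell, 1 of them in the core and 2 in the regulatory particle, and the difference was 0.032. Over only the members that share under 10% of their exonic bases, also chosen after seeing the data, the medians were 0.32, 0.36 and 0.21. The cause of these shifts was not tested.

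Leaving out each tumour in turn, 19 to 20 members rose and 2 to 3 fell, with a median of 0.22 to 0.28. In the core 10 rose and 0 fell, with a median of 0.34 to 0.39. In the regulatory particle 8 to 9 rose and 0 fell, with a median of 0.17 to 0.20, and the difference between the particles was 0.15 to 0.19.

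Many signs of single genes turned where the value was near 0. Some turned from a called rise: PSMA3 (0.43), PSMD14 (0.34) and RPS27A with the principal offset, and PSMC2 (0.16) with the exonic offset. With the principal offset the log2 fold change became −0.058 in PSMA2, −0.0076 in PSMA3, −0.21 in PSMD6, −0.095 in PSMD7, −0.035 in PSMD14, −0.086 in RPS27A, 0.0088 in PSMD11, 0.0028 in PSMD1 and 0.13 in PSMD2. With the exonic offset it became −0.026 in PSMC2, −0.096 in PSMD7, 0.0059 in PSMC5, 0.10 in PSMD2, 0.041 in PSMD11 and 0.026 in PSMD9. With upper quartile factors it became 0.013 in PSMC5, 0.0002 in PSMD1 and 0.0029 in PSMD2, and by library size alone 0.14 in PSMC5, 0.13 in PSMD1, 0.13 in PSMD2, 0.076 in PSMD11 and 0.0094 in PSMD9. Leaving out a tumour, PSMD1 ranged from −0.058 to 0.015 (without shGFP tumour 3) and PSMD2 from −0.088 to 0.004 (without shVCAN tumour 3), with 0.0006 without shGFP tumour 2.

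No pairing of the tumours by replicate number was visible in expression. Same-numbered tumours correlated at −0.027 to 0.018 in their deviations from the group means, and not every tumour correlated best with its own number. Whether equal numbers mark a shared origin or batch is not known. With the replicate number as a block, 20 members rose and 3 fell, as without it. For single genes, 846 values kept their direction and side of the threshold, 32 lost and 8 gained the call in the same direction, and 26 changed sign, some of which also lost or gained a call. Depth limits PSMA6, PSMA2 and PSMD9 most among the tested members.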

Other observations

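A pair of other multi-subunit complexes were listed for comparison, and most of their genes rose. The COP9 signalosome, a relative of the proteasome lid that removes the ubiquitin-like protein NEDD8 from cullin ligases, had 7 of 9 genes higher and 1 lower, with a median log2 fold change of 0.27. COPS4 went from 24.8 ± 4.78 to 40.2 ± 4.50 CPM (SD, n = 3, log2 fold change 0.69, SE 0.112, adjusted p = 8.65e-06) and COPS6 from 103 ± 2.56 to 129.8 ± 7.15 CPM (SD, n = 3, log2 fold change 0.34, SE 0.0607, adjusted p = 4.44e-05). Its catalytic subunit COPS5 rose too (log2 fold change 0.45, SE 0.0812, adjusted p = 3.96e-05), though not with the offset for principal transcript length (adjusted p = 0.0803). The CCT chaperonin, which folds actin and tubulin, had 7 of 8 genes higher and 0 lower, with a median of 0.26. CCT2 stood at 247, 245 and 231 CPM in shGFP tumours 1, 2 and 3 and 344, 338 and 353 CPM in shVCAN tumours 1, 2 and 3, with no overlap (log2 fold change 0.52, SE 0.0494, adjusted p = 6.9e-10), and CCT4 and CCT7 rose by 0.49 and 0.38 on the log2 scale. Of all tested genes, 19.2% rose and 21.1% fell.

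Of 5 tested genes on the list of NFE2L1 and heat-shock targets, 0 rose and 1 fell, with a median of −0.13, which was 0.032 when libraries were scaled by size alone. This share is near the 21.1% of all genes that fell. With the exonic offset 0 rose and 3 fell (DNAJB1, BAG3 and HMOX1), where 19.4% of all genes fell. The gene that fell without an offset was DNAJB1, a co-chaperone induced by heat shock, which went from 586 ± 32.7 to 419.6 ± 6.52 CPM (SD, n = 3, log2 fold change −0.48, SE 0.0473, adjusted p = 1.28e-09). HSPA1A and HSPA1B were listed at 0.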
